A study of Rattus norvegicus with 6 samples.

Results

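Polyamines are small, positively charged molecules that cells make from ornithine and methionine, and this section describes the transcripts of the genes that build them, restrain their synthesis and break them down in the renal cortex of rats. The gene list held 10 genes: Odc1, Amd1, Srm and Sms for synthesis, Azin1 and Oaz1 for control of the first enzyme, and Sat1, Smox, Paox and Aoc1 for breakdown. They were found by matching the RefSeq accession of each array probe to a gene symbol. Of the 10 genes, 9 had a probe named this way, with 19 probes in all among 61515. Paox, the oxidase of acetylated polyamines, had no probe so named and was not analysed here, and Aoc1 was not well above background on any array. The remaining 8 genes were tested among 11530 genes of the series.

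The rats were male Sprague-Dawley animals bought at 5 weeks of age. In the ethylenediamine group, 3 rats received ethylenediamine dihydrochloride at 500 mg/kg/day for 4 weeks, and in the water group 3 rats received water for 4 weeks. Each rat gave 1 array of cortical RNA, on a 1-colour Agilent platform. Arrays of a group therefore differ by animal as well as by technique. Ethylenediamine replicate 1 shared slide 1 with all 3 water arrays, whereas ethylenediamine replicates 2 and 3 were on slide 2, scanned separately. Ethylenediamine replicate 1 had the fewest probes well above background, 35691, against 38930 to 40843 on the other arrays. A probe counts as well above background where the scanner software marked it so, and a gene was tested on its brightest probe so marked on all 3 arrays of at least 1 group.

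Ornithine decarboxylase, the product of Odc1, makes the diamine putrescine, and adenosylmethionine decarboxylase (Amd1) supplies the aminopropyl groups with which spermidine synthase (Srm) and spermine synthase (Sms) lengthen it. Antizyme (Oaz1) binds ornithine decarboxylase and sends it to the proteasome, and the antizyme inhibitor (Azin1) takes antizyme away. Sat1 acetylates spermidine and spermine, Smox oxidises spermine back to spermidine, and Aoc1, diamine oxidase, oxidises putrescine and histamine. Ethylenediamine is itself a diamine, with a shorter carbon chain than putrescine. Much of the control of these enzymes acts on translation and protein turnover, which transcript arrays do not measure.

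The windows upstream of 3 of these genes are printed because their transcripts mark the contrasts described below. Those of Odc1, Amd1, Sms and Smox did not end at the annotated gene start and are left out. The groups did not overlap for Srm, Oaz1 on its brightest probe was among the steadiest genes on the arrays, and Sat1 had the lowest log2 fold change of the list. Each printed window is the stretch of 250 bases before the annotated gene start in RefSeq, on build GRCr8, read 5′ to 3′ on the gene's strand. Capitals mark exact matches, on either strand, to the E-box CACGTG, the GC box GGGCGG, the TATA box TATAAA and the antioxidant response core TGACNNNGC.
Srm, chr5:164308752-164309001 (+): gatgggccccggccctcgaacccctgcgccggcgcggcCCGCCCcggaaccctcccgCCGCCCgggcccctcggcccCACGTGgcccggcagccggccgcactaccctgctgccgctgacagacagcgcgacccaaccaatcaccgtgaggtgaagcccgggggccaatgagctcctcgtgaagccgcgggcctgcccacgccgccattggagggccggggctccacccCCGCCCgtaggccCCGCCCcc
Oaz1, chr7:9536991-9537240 (-): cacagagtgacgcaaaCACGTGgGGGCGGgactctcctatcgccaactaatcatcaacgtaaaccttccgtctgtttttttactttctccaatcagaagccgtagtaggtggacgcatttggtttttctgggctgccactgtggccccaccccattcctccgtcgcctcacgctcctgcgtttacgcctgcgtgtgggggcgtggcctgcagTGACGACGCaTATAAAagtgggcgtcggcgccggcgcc
Sat1, chrX:44007839-44008088 (+): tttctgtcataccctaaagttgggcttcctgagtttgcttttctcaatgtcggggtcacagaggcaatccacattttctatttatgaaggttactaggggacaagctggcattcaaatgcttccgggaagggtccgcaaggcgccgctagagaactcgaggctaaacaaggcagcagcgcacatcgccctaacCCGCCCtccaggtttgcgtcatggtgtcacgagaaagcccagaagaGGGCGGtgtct
The Srm window held 1 E-box, whose nearer end lay 168 bases from the start, and 4 GC boxes. The Oaz1 window also held 1 E-box, with 1 GC box, 1 TATA box and 1 antioxidant response core. The Sat1 window held 2 GC boxes and no other match. No base of these windows lay in matches to more than 1 motif. Over the same windows of 33469 genes, the E-box was found in 5.59%, the GC box in 30.5%, the TATA box in 12.9% and the antioxidant response core in 10.1%. G and C bases made up 78.4% of the Srm window, 58.0% of the Oaz1 window and 52.8% of the Sat1 window. Their median over those windows was 51.2%, and the shares were not matched for it. The E-box was present before a gene whose groups did not overlap and before a gene that was steady on its brightest probe. These matches describe letters, not binding.

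The program limma fits a linear model and draws each gene's variance toward a value estimated from all genes. Between ethylenediamine and water, 0 of the 8 tested members passed by limma at an adjusted p under 0.05. The share over all genes tested was 0%. At an unadjusted p under 0.05 there was 1 member, Srm, against 10.4% of all genes (5.39% higher and 4.97% lower in ethylenediamine). A share of 1 in 8 cannot be told from that background. Log2 fold changes, ethylenediamine over water, were positive for 6 members and negative for 2, with a median of 0.018 over the 8, beside -0.004 over all genes tested. Levels below are log2 signals relative to the 75th percentile of the same array, so 0 is that percentile, and they compare arrays for 1 probe and not genes with each other. In these bulk samples, fewer cells of a type and less RNA per cell cannot be told apart.

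Spermidine synthase (Srm) was the member with the clearest separation. Its signal was 2.23, 2.38 and 2.34 in ethylenediamine replicates 1 to 3, against 2.11, 2.14 and 2.16 in water replicates 1 to 3. All ethylenediamine arrays lay above all water arrays, as was so for 9.2% of genes tested (17.5% with both directions). The level averaged 2.31 ± 0.0771 in ethylenediamine rats and 2.14 ± 0.0216 in water rats (SD, n = 3 each). The log2 fold change was 0.18 ± 0.0599 (SE), or 1.13-fold with a 95% interval of 1.02 to 1.25 (limma adjusted p = 0.416). The other Srm probe read 1.35, 1.36 and 1.43 in ethylenediamine rats, against 1.21, 1.25 and 1.19 in water rats. It separated the groups the same way, at a log2 fold change of 0.16 ± 0.0556 (SE), although probes of one gene share a target and are not replicates. Within slide 1 the Srm difference was 0.093.

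Odc1 was the member whose ethylenediamine arrays were furthest apart. Its signal was 1.29, 1.67 and 2.23 in ethylenediamine replicates 1 to 3, against 1.52, 1.5 and 1.58 in water replicates. Replicate 1 lay below every water array and replicates 2 and 3 above them all, so the groups overlapped. On the brightest probes, the same arrangement was found in 2 of 8 members, Odc1 and Smox, and in 2.49% of genes tested. The SD was 0.474 over ethylenediamine arrays and 0.0389 over water arrays. An ethylenediamine SD as large was found in 5.9% of genes tested. The ratio of these SDs was 12.2, and that of Smox was larger, at 18.7. A ratio as large as that of Odc1 was found in 1.08% of genes, a description that rests on 3 arrays a group. On the log2 scale the difference was 0.20 ± 0.232 (SE), or 1.15-fold with a 95% interval of 0.773 to 1.71 (limma adjusted p = 0.778). It was 0.42 without ethylenediamine replicate 1, -0.05 without replicate 3, and -0.24 within slide 1. The other Odc1 probe gave the same order of ethylenediamine arrays, at 1.00, 1.34 and 1.89, against 1.22, 1.38 and 1.31 in water rats, though there replicate 2 fell inside the water range. The SDs of that probe were 0.448 over ethylenediamine arrays and 0.0778 over water arrays. The annotation lists 10 pseudogenes named after Odc1, 3 after Amd1 and 2 each after Sms and Oaz1, and any share of signal from such copies was not tested.

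**Figure D1:**
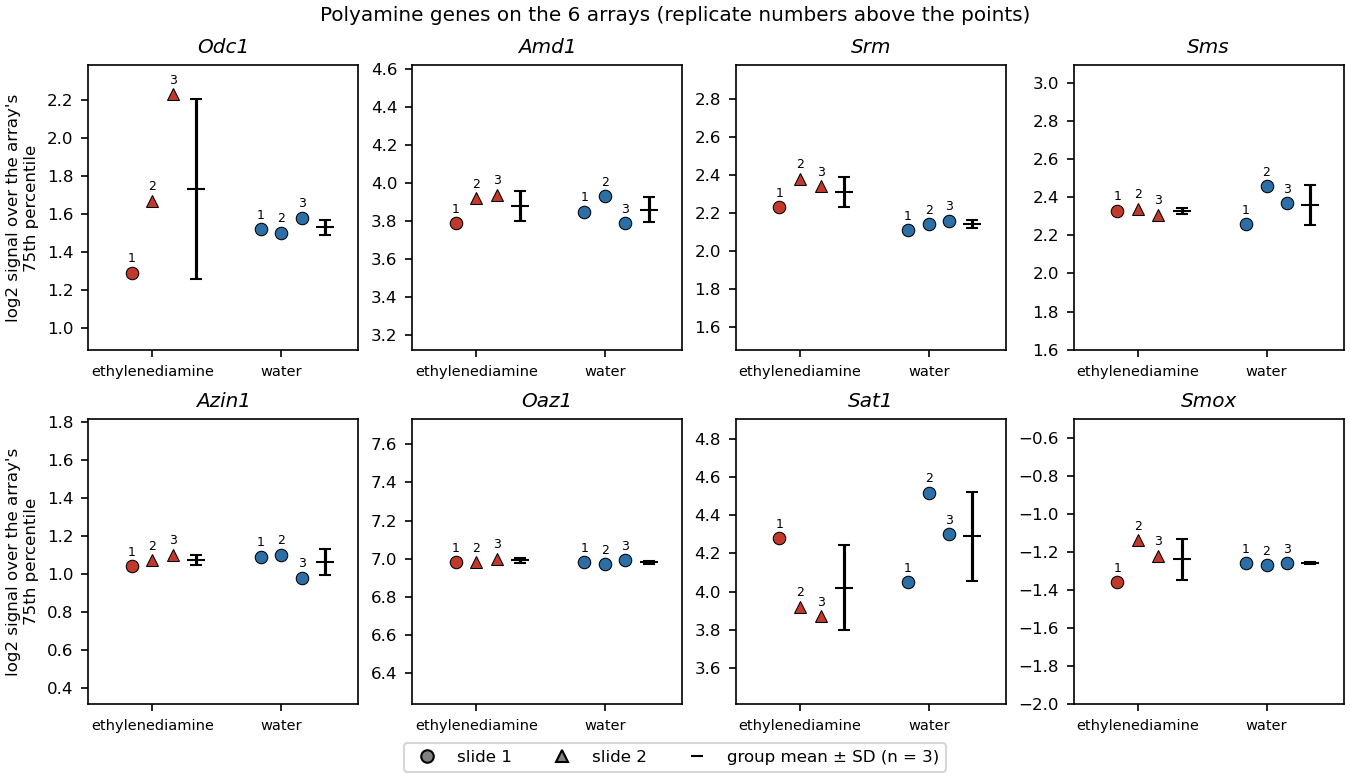
Log2 signal of the brightest probe of each tested polyamine gene relative to the array's 75th percentile, with ethylenediamine arrays left of water arrays and the shape giving the slide; bars are group means ± SD (n = 3). Each panel spans the same height, and Srm is the gene whose groups do not overlap, with 2.23 to 2.38 in ethylenediamine rats and 2.11 to 2.16 in water rats.

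The other enzymes of synthesis stood close to their water levels. Amd1 read 3.79, 3.92 and 3.94 in ethylenediamine rats, against 3.85, 3.93 and 3.79 in water rats. Its log2 fold change was 0.03 ± 0.0674 (SE), with a 95% interval of 0.908 to 1.14 on the fold scale (limma adjusted p = 0.913). Sms read 2.33, 2.34 and 2.31 in ethylenediamine rats, against 2.26, 2.46 and 2.37 in water rats. Its log2 fold change was -0.04 ± 0.0682 (SE), with a fold interval of 0.868 to 1.1 (limma adjusted p = 0.873). For both genes the groups overlapped and the interval took in no change. The intervals bound the difference and do not show that the groups were equal.

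On their brightest probes, the antizyme pair had smaller ranges over the 6 arrays than Amd1 and Sms. Oaz1 read 6.98, 6.98 and 7.0 in ethylenediamine rats, against 6.98, 6.97 and 6.99 in water rats. Its range over the 6 arrays was 0.0278, and 0.026% of genes, 3 of 11530 with Oaz1 included, had a range no larger. The log2 fold change of Oaz1 was 0.01 ± 0.0467 (SE), with a fold interval of 0.927 to 1.09 (limma adjusted p = 0.973). The second Oaz1 probe had a range from 5.79 to 5.85 in ethylenediamine rats and from 5.75 to 5.87 in water rats. Azin1, whose product frees ornithine decarboxylase from antizyme, read 1.04, 1.07 and 1.1 in ethylenediamine rats, against 1.09, 1.1 and 0.98 in water rats. Its log2 fold change was 0.01 ± 0.0578 (SE), with a fold interval of 0.914 to 1.11 (limma adjusted p = 0.957). The second Azin1 probe varied more, from -0.94 to -0.78 in ethylenediamine rats and from -1.02 to -0.68 in water rats.

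On the breakdown side, spermidine/spermine acetyltransferase (Sat1) had the lowest log2 fold change of the list. Its signal was 4.28, 3.92 and 3.87 in ethylenediamine replicates 1 to 3, against 4.05, 4.52 and 4.30 in water replicates. Replicates 2 and 3 lay below all water arrays and replicate 1 within their range. Its log2 fold change was -0.27 ± 0.162 (SE), or 0.832-fold with a 95% interval of 0.631 to 1.1 (limma adjusted p = 0.616). It was -0.39 without ethylenediamine replicate 1 and -0.01 within slide 1. The other Sat1 probe gave 4.21, 3.81 and 3.84 in ethylenediamine rats, against 3.95, 4.42 and 4.22 in water rats, so both probes ordered the arrays of the groups alike apart from replicates 2 and 3 of ethylenediamine.

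Spermine oxidase (Smox) read -1.36, -1.14 and -1.22 in ethylenediamine rats, against -1.26, -1.27 and -1.26 in water rats. The water arrays were nearly equal and the ethylenediamine arrays stood on both sides of them. Its difference on the log2 scale was 0.02 ± 0.0693 (SE), with a fold interval of 0.903 to 1.14 (limma adjusted p = 0.928). The 2 dimmer Smox probes had log2 fold changes of -0.21 ± 0.178 and -0.04 ± 0.173 (SE, n = 3 per group). One of them was well above background on 2 of 3 ethylenediamine arrays and 3 of 3 water arrays. The array on which it was not so marked was ethylenediamine replicate 1, where its processed intensity was 41.3.

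Diamine oxidase (Aoc1) could not be compared. Its single probe was well above background on 0 of 3 ethylenediamine arrays and 0 of 3 water arrays. The processed intensity was 8.40, 4.09 and 8.62 in ethylenediamine rats, against 4.13, 7.39 and 5.27 in water rats, all under the lowest signal well above background on the same array. No fold is given, and with 1 probe a transcript of low level cannot be told apart from a probe that responds poorly. In pigs, kidney is a classical source of this enzyme.

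All probes of the members, each fitted alone among 37822 probes, gave the same outcome. At an adjusted p under 0.05 there were 0 of 18 member probes, against 0.0106% of all probes tested. At an unadjusted p under 0.05 there were 2, both of Srm, against 10.7% of all probes. Probes of the same gene had log2 fold changes of opposite sign for 5 members (Amd1, Azin1, Oaz1, Smox and Sms), all of them near 0 on their brightest probe. For Odc1, Srm and Sat1 the probes of a gene had the same sign.

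**Figure D2:**
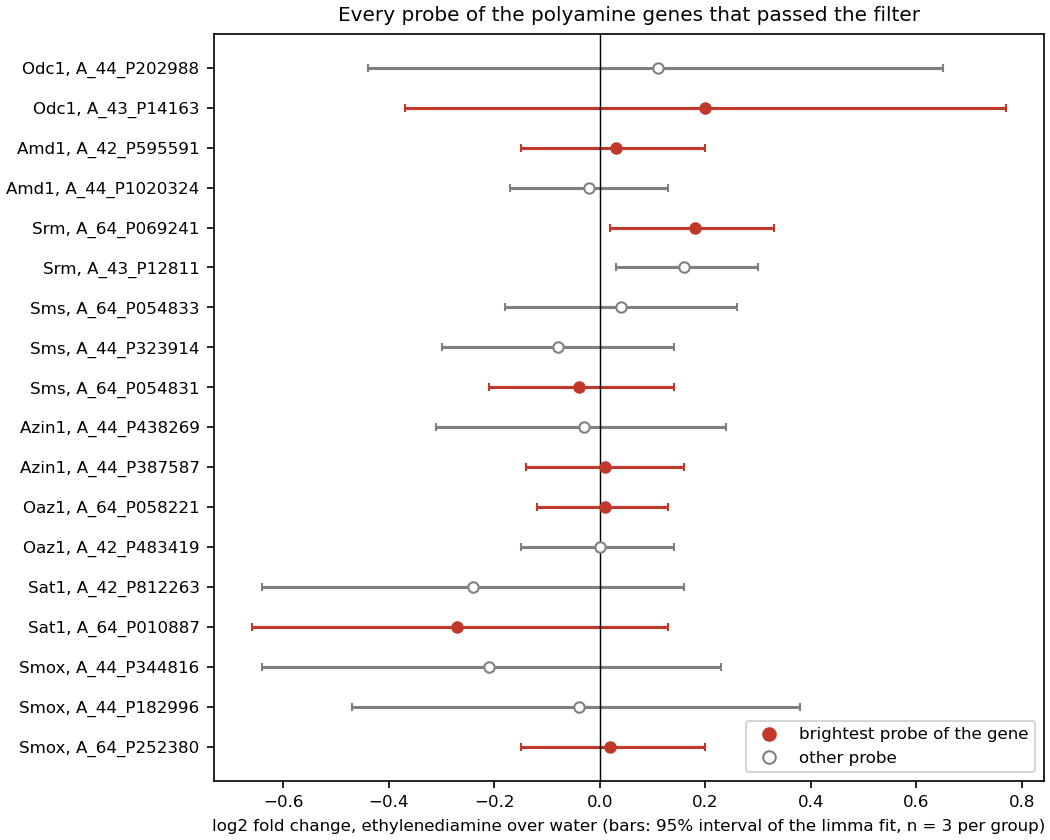
Log2 fold change, ethylenediamine over water, of the 18 member probes fitted one by one; bars are the 95% intervals of the limma fit (n = 3 per group), and filled red points are the brightest probe of each gene. The 2 Srm probes, at 0.18 and 0.16, have the only intervals in the plot that lie wholly above 0, and the Odc1 and Sat1 intervals are among the widest.

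The slides bear on these values. For ethylenediamine replicates 2 and 3, alone on slide 2, treatment and slide cannot be told apart, and slide 1 compares ethylenediamine replicate 1 with the 3 water arrays. The 2 arrays on slide 2 lay above all water arrays for 3 of 8 members (Odc1, Srm and Smox), as for 16.9% of genes, and below all of them for 1 (Sat1), as for 16.4%. For Odc1 and Smox that position held on the brightest probe only, and for Srm and Sat1 on both probes. Within slide 1 the ethylenediamine arm has 1 array and the spread comes from water arrays alone. Only differences are therefore given for that fit, with no test. Without ethylenediamine replicate 1, Sat1 and Srm were at an unadjusted p under 0.05 (limma adjusted p = 0.364 and 0.254), among 13.5% of genes. With the slide as a fixed block, 0 members were at that level, among 7.63% of genes. At an adjusted p under 0.05 there were 0 members in both of these fits, against 0.00867% of genes without ethylenediamine replicate 1 and 0.0867% with the slide as a block. Leaving out any other single array left 0 members at an unadjusted p under 0.05, while 905 to 1033 of 11530 genes were at that level. With 8 members, a count of 0 cannot be told from that background.

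**Figure D3:**
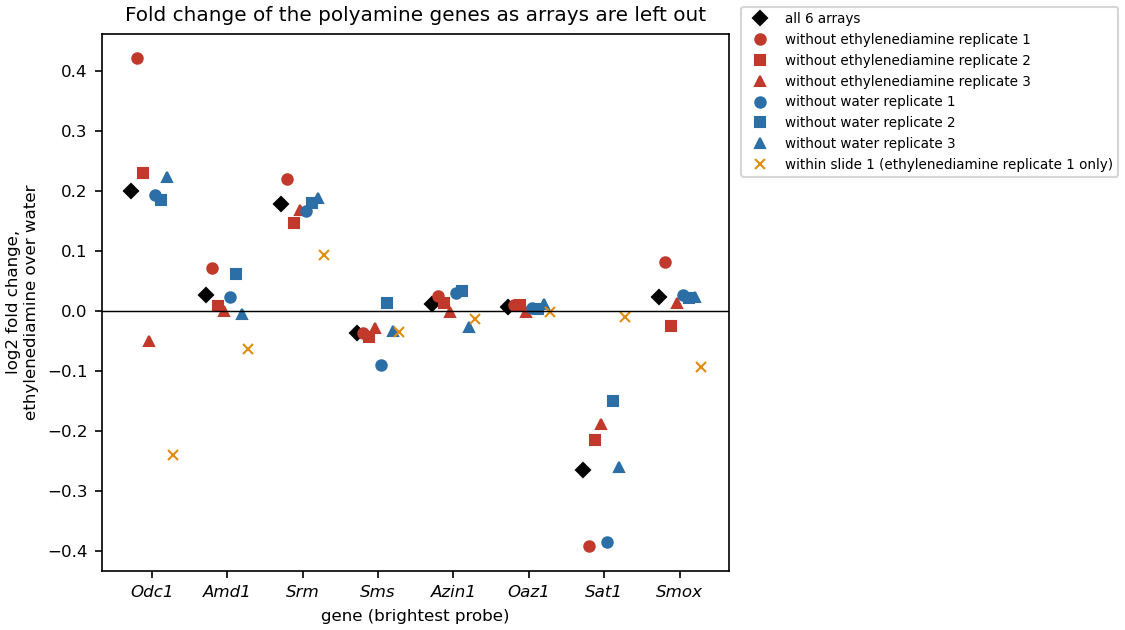
Log2 fold change, ethylenediamine over water, of each tested polyamine gene with all 6 arrays (black), without each ethylenediamine array (red), without each water array (blue) and within slide 1 (orange crosses). Odc1 spans -0.24 to 0.42 and changes sign, while Srm stays positive from 0.093 to 0.22 and Sat1 stays negative from -0.39 to -0.01.

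Markers of the tissue were checked beside these results. All 7 proximal tubule genes listed, all 3 of the thick ascending limb and all 3 of podocytes were well above background on the 6 arrays. Of 4 adrenal genes 1 passed the filter, and Cyp11b1, Cyp11b2 and Star did not, while the T cell gene Cd3e did not pass either. The leukocyte genes Ptprc and Cd68 were well above background on the 6 arrays, as were all 3 renal medulla genes listed. Over all genes tested, 5.39% were higher and 4.97% lower at an unadjusted p under 0.05, and no marker named here passed after adjustment. In the tubular injury list 3 of 5 genes were higher at that level. Their log2 fold changes were 2.56 ± 0.457 for Havcr1, 1.06 ± 0.363 for Lcn2 and 1.2 ± 0.395 for Spp1 (SE). Clu stood at 0.4 ± 0.353 and Vcam1 at -0.18 ± 0.186 (SE). Havcr1, which encodes kidney injury molecule, was well above background on 3 of 3 ethylenediamine arrays and 2 of 3 water arrays, so it passed the filter through the ethylenediamine group alone. The other 4 genes of the list averaged 1.97, 2.23 and 2.67 in ethylenediamine replicates 1 to 3, against 1.29, 1.72 and 2.01 in water replicates, and the groups overlapped. The collecting duct list, with 2 of 4 genes lower (Aqp2 and Atp6v1g3), averaged 5.15, 4.90 and 4.97 in ethylenediamine rats, against 5.30, 5.40 and 5.21 in water rats. The distal convoluted tubule list, with 1 of 2 genes lower (Calb1), averaged 3.23, 2.79 and 2.70 in ethylenediamine rats, against 3.37, 3.63 and 3.58 in water rats. In the proximal tubule list 1 of 7 genes was lower, Lrp2, at a log2 fold change of -0.19 ± 0.056 (SE). The 2 adipose genes that passed the filter, Adipoq and Cidec, averaged -1.71, -0.32 and -0.52 in ethylenediamine replicates 1 to 3, against -1.27, -1.44 and -1.24 in water replicates. That average had the arrangement seen in Odc1, but neither gene had it alone. Adipoq read -0.8, 0.2 and -0.6 in ethylenediamine rats, against -0.18, -0.14 and -0.4 in water rats. Within that list Cidec read -2.63, -0.84 and -0.44 in ethylenediamine rats, against -2.36, -2.74 and -2.07 in water rats, and Lep did not pass the filter. The marker genes singled out here were chosen after their values were seen, and the part of these lists in the member values was not tested.

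The wider pathway held 45 further genes in 6 lists, of which 40 had a probe and 36 were tested. By limma, 0 of the 36 passed at an adjusted p under 0.05. At an unadjusted p under 0.05, 1 was higher and 2 were lower, against the 10.4% of all genes given above. The median log2 fold change over the 36 was 0.019, beside -0.004 over all genes tested. Genes are named below by the smallest p in each list, unless said otherwise.

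Supply of ornithine and arginine had 1 of 7 genes at that unadjusted level. Ass1, argininosuccinate synthase of arginine production, read 6.12, 5.98 and 5.99 in ethylenediamine rats, against 6.34, 6.18 and 6.17 in water rats, and all ethylenediamine arrays lay below all water arrays, as for 8.27% of genes. Its log2 fold change was -0.20 ± 0.0753 (SE, limma adjusted p = 0.46). Asl, which acts next to it, stood at -0.15 ± 0.0628 (SE, limma adjusted p = 0.494), and its groups did not overlap either, in the same direction. Arg2, the mitochondrial arginase that makes ornithine and which was chosen after its values were seen, read -2.14, 0.26 and 0.28 in ethylenediamine rats, against -0.94, -1.59 and -0.58 in water rats. As in Odc1, ethylenediamine replicate 1 was below every water array and replicates 2 and 3 above them, and the Arg2 interval ran from -1.25 to 2.25 on the log2 scale.

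In the methionine cycle and its salvage route, 0 of 7 genes were at that level. Mri1, an isomerase of methionine salvage, stood at a log2 fold change of -0.12 ± 0.0591 and Mat2a, which makes adenosylmethionine, at 0.11 ± 0.09 (SE, n = 3 per group). For Mri1 all ethylenediamine arrays lay below all water arrays, as for 8.27% of genes, and for Mat2a the groups overlapped. Of the further antizymes, Oaz2 stood at -0.10 ± 0.0677 and the second antizyme inhibitor, Azin2, at -0.18 ± 0.137. Oaz3 was not tested. Amd2, named after the same decarboxylase as Amd1 and not an antizyme, was also in that list and was not tested.

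Hypusination, which uses spermidine to modify the translation factor eIF5A, had 1 of 4 genes higher at the unadjusted level. Deoxyhypusine synthase (Dhps) read -0.24, -0.24 and -0.07 in ethylenediamine rats, against -0.42, -0.32 and -0.34 in water rats. All ethylenediamine arrays lay above all water arrays, as for 9.2% of genes. The Dhps log2 fold change was 0.18 ± 0.0715 (SE, limma adjusted p = 0.479). Its substrate Eif5a stood at 0.05 ± 0.0513 (SE), and the Eif5a groups did not overlap either, in the same direction. Among other amine oxidases, acetylases and aldehyde dehydrogenases, 0 of 7 genes were at that level. The monoamine oxidase Maob stood at -0.26 ± 0.177 and the mitochondrial aldehyde dehydrogenase Aldh2 at -0.10 ± 0.0684 (SE, n = 3 per group).

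Transport held 1 of 9 genes at the unadjusted level, Slc3a2, a shared chain of amino acid carriers that has been tied to diamine export. It read 4.49, 4.53 and 4.53 in ethylenediamine rats, against 4.70, 4.61 and 4.63 in water rats. All ethylenediamine arrays lay below all water arrays, as for 8.27% of genes. The Slc3a2 log2 fold change was -0.13 ± 0.0522 (SE, limma adjusted p = 0.479). Slc22a2, the organic cation transporter of the basolateral proximal tubule, read 3.5, 4.08 and 4.69 in ethylenediamine replicates 1 to 3, against 3.63, 3.52 and 3.41 in water replicates. Replicate 1 lay inside the water range and replicates 2 and 3 above it. The log2 fold change of Slc22a2 was 0.57 ± 0.29 (SE, limma adjusted p = 0.559), with 0.86 without ethylenediamine replicate 1, 0.27 without replicate 3 and -0.015 within slide 1.

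**Figure D4:**
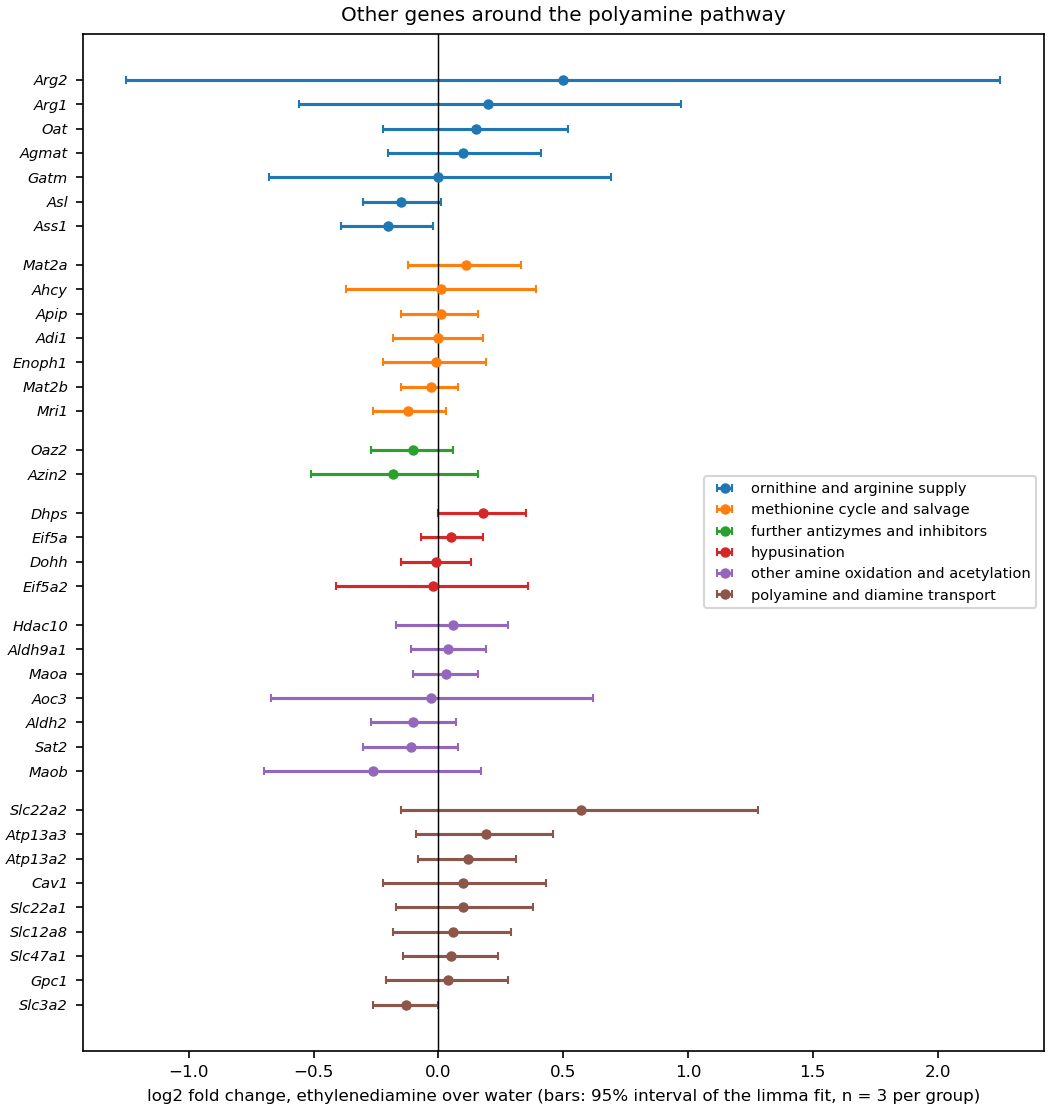
Log2 fold change, ethylenediamine over water, of the 36 other pathway genes tested, coloured by list; bars are 95% intervals of the limma fit (n = 3 per group). Ass1 and Slc3a2 lie below 0 and Dhps above it with intervals that end at or near 0, and Slc22a2, at 0.57, and Arg2, at 0.50, have the highest values and wide intervals.

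The genes most like Odc1 and Sat1 were named by Pearson's r over the 6 arrays among 10929 genes well above background on all of them, as a description in which the arrays share treatment and slide. For Odc1 they were Cdyl2 (r = 0.9863), Rpp30 (0.9847) and Galr2 (0.9803). Cdyl2 read -2.91, -2.53 and -1.56 in ethylenediamine rats, against -2.76, -2.77 and -2.61 in water rats. For Sat1 they were Stk39 (r = 0.9997), Trpm7 (0.9953) and Aif1l (0.9918). Stk39 read 0.66, 0.47 and 0.44 in ethylenediamine rats, against 0.55, 0.80 and 0.67 in water rats, a spread smaller than that of Sat1 in the same order. With 6 arrays and this many genes, high values of r are found for many genes, and Aoc1 had no level from which to take one.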

How the data were processed

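The authors' scanner output gives a linear, background-subtracted intensity for each spot. Per the file headers it came from Agilent Feature Extraction 10.7.1.1 with a grid for rn4, and the submitters' processing notes name version 10.7. The deposited value table holds the same intensity divided by a value near each array's 75th percentile. It is linear and uncentred, with column medians of 0.1062, 0.1104 and 0.1071 for ethylenediamine replicates 1 to 3 and 0.1076, 0.1053 and 0.1046 for water replicates 1 to 3. It served as an alternative.

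Here log2 processed intensity minus the array's 75th percentile was used. Control spots (1439) and 22 probes with an outlier flag were left out, and no spot was saturated. RefSeq accessions named 28194 probes through a GRCr8 table used for names. A probe was kept if well above background on all 3 arrays of a group (37822 probes), and the brightest stood for its gene. limma 3.58.1 in R 4.3.3 compared the groups (Benjamini-Hochberg over 11530 genes, threshold 0.05). It was tested on simulated data.

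Between 35691 and 40843 probes per array were well above background. The number of arrays limits the precision. The first principal component (30.5% of the variance) placed ethylenediamine arrays at -3.56, 14.51 and 24.35 and water arrays at -13.17, -11.87 and -10.26, and the second (23.6%) set ethylenediamine replicate 1 apart.

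The named genes were every member, the 2 smallest p of each wider list, and the 3 genes most like Odc1 and Sat1. The rule also covered Aoc1, which had no level to compare. Arg2 and the markers of other cell types were named outside it. Members and lists were chosen with earlier results of these data known. Normexp background used the median spot signal, since the files used here hold no mean signal. The 21 alternatives covered background, scaling, filter, probe choice, variance model, slide, replicate number and arrays left out.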

Additional observations from a re-analysis of the deposited data

How the results depend on the processing

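The 21 alternatives included the fit within slide 1, from which only differences are given. In the others, 0 of 8 members and 0 of 36 other pathway genes passed at an adjusted p under 0.05 by limma. The lowest adjusted p of a member there was 0.254. Srm and Sat1 kept their sign throughout. The sign of Odc1 turned with the slide as a fixed block and within slide 1 (-0.241 in both) and that of Amd1 under the same settings (-0.064) and with median scaling (-0.002). The fixed block and the fit within slide 1 give the same difference, which rests on 1 ethylenediamine array. Azin1 turned with normexp background (-0.002), median scaling (-0.016), the mean of a gene's probes (-0.011) and both slide settings (-0.013). Oaz1 turned with normexp background (-0.032), median scaling (-0.022), the 75th percentile over probes well above background on all arrays (-0.002) and both slide settings (-0.001). Smox turned with median scaling (-0.005), the mean of its probes (-0.075) and both slide settings (-0.093). Mat2a (-0.016) and Slc22a2 (-0.015) turned with both slide settings. Leaving out 1 array gave ranges of -0.05 to 0.422 for Odc1, -0.005 to 0.072 for Amd1, -0.091 to 0.013 for Sms, -0.027 to 0.034 for Azin1, -0.001 to 0.011 for Oaz1 and -0.025 to 0.081 for Smox. The cause was not tested.

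Over all genes, the count past the threshold was 0 in the main setting, 1 with an intensity trend, 10 with the slide as a fixed block, 6 within slide 1 (1 ethylenediamine array, assumed to vary like the water arrays) and 0 to 1 with 1 array left out (1 without ethylenediamine replicate 1 and 1 without water replicate 2). Members at an unadjusted p under 0.05 numbered 1 (Srm), 0 with the slide as a fixed block and 0 to 2 with 1 array left out. With the replicate number as a block, 0 members were at that unadjusted level, beside 948 of 11530 genes, and 0 genes were past the threshold. The numbers share no animal, and same-numbered arrays had correlations of deviations of -0.003, 0.022 and -0.008, so this replicate block tells little. Background limits the dim Smox probes and Aoc1.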
